A study of Mus musculus with 16 samples.

Results

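The immediate early genes Fos, Fosb, Jun, Junb, Egr1, Atf3, Nr4a1, Ier2, Ier3 and Myc were followed through liver regeneration in mice with and without HIRA in their hepatocytes. The genes were chosen by name, and each of the 10 had 1 row among the 55421 gene rows of the count table. RNA had been sequenced from 16 liver samples of male C57BL/6 mice. Both genotypes, control and HIRA KO, were sampled before and after regeneration, with 4 libraries in each of the 4 groups. HIRA is a histone chaperone whose cargo is H3.3, the variant that can enter chromatin without DNA replication. In each HIRA KO group, 2 mice were HIRAfl/fl animals given AAV8-Tbg-Cre and 2 were wildtype animals given AAV8-Tbg-saCAS9/U6-sgRNA-HIRA. In each control group, 2 wildtype mice had received AAV8-Tbg-Cre and 2 had received the saCAS9 vector with a Rosa26 guide. The Tbg promoter is active in hepatocytes, so the deletion was aimed at these cells, and HIRA in other liver cells was not measured here. Every animal, controls included, had received a virus. The virus was given to mice aged 6 months, a partial hepatectomy followed after 4 weeks, and the remnant was collected 5 days after surgery. The tissue taken out at surgery was the sample before regeneration and the regrown remnant was the sample after it, so the lobe, the way of collection and the time since surgery cannot be told apart. By the study's methods both tissues came from the operated mice, so samples before and after are paired within mice. The main tests treated the libraries as independent. Libraries are named by group and number, and neither the deletion approach nor the mouse behind a number was given in the table.

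Immediate early genes are switched on within minutes of a signal from transcription factors that the cell already holds, with no need for new protein. Most of them encode short-lived transcription factors. FOS, FOSB, JUN and JUNB are subunits of AP-1, which binds DNA as a dimer, and ATF3 is a stress-induced relative that pairs with JUN proteins. EGR1 is a zinc finger factor, NR4A1 is an orphan nuclear receptor, and MYC drives ribosome production and entry into the cell cycle. IER2 and IER3 are small proteins without a DNA-binding domain of these classes. In the liver this set is known as the first transcriptional wave after partial hepatectomy, and its transcripts also respond to stress, hormones and the handling of tissue.

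Libraries held 15103059 to 21738619 counts (median 18337571), and all 10 genes passed the minimum of 10 counts in total. Values are given as counts per 1000000 (CPM), scaled between libraries. Hira itself was lower in all HIRA KO libraries than in any control library at both times, at 5.77 ± 0.448 against 3.54 ± 0.571 CPM before regeneration and 5.67 ± 0.554 against 3.51 ± 0.707 CPM after it (mean ± SD, n = 4 each), although its adjusted p missed the threshold of 0.05 (0.129 before and 0.0666 after, edgeR). The HIRA KO libraries numbered 1 and 2 stood apart from all others on the second principal component over all genes, at -47.4 and -36.6 before and -40.2 and -36.2 after regeneration, against -1.14 to 31.2 for the other 12 libraries. The main counts of calls and directions for the 10 genes in HIRA KO are therefore given with and without these 4 libraries. Several counts for other genes are given in the same way.

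In mouse build GRCm38 the genes lie apart from each other. On chromosome 12 Fos spans chr12:85473890-85477273, and on chromosome 7 Fosb spans chr7:19302696-19310051. Jun lies at chr4:95049034-95052222, Junb at chr8:84974484-84978718 and Atf3 at chr1:191170296-191218039. Nr4a1 (chr15:101254269-101274795) and Myc (chr15:61985391-61990374) share chromosome 15, Ier2 lies at chr8:84661331-84662852, on the chromosome of Junb, and Ier3 at chr17:35821684-35822923. All 10 are protein-coding, and counts cover their exons.

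Promoter sequences from RefSeq (GRCm38.p6) were matched for 7 of the 10 genes: Fos, Fosb, Jun, Junb, Atf3, Nr4a1 and Ier3. Egr1, Ier2 and Myc were not searched, so the counts below say nothing about their promoters. The chromosome of Egr1 was left out of the search as a whole, also for the shares over all promoters. In the window from 250 bases before to 50 bases after the annotated start, the core of the cyclic AMP response element (CRE), TGACG on either strand, was found in 5 of the 7, against 20.8% of 32851 promoters of the same length. The full element TGACGTCA, which contains that core, was found in 0 of the 7 and in 1.79% of all promoters. The AP-1 site TGACTCA was in 0 of the 7 (5.2% of all), the CArG box in 0 of the 7 (1.63%), and the TATA element TATAAA in 2 of the 7, Fos and Junb (13.6%). The TATA match began 33 bases before the start in Fos and at the start itself in Junb. A match of letters is a description and not a measured binding site. The start is that of the RefSeq entry, and all distances count from it. For Nr4a1, Atf3, Fosb and Ier3 it lies inside the gene span given above. For Junb, on the minus strand, it lies upstream of that span, which ends at 84978718. The TATA match of Junb therefore also lies upstream of the span. The 150 bases before this start are shown for 4 genes that had lower transcript levels after regeneration, Fos, Fosb, Junb and Nr4a1, and for Atf3, which did not, because these are the 5 that hold the core. Each is written 5′ to 3′ on the strand of the gene, and capitals mark TGACG or its reverse complement CGTCA.
Fos, chr12:85473740-85473889, plus strand: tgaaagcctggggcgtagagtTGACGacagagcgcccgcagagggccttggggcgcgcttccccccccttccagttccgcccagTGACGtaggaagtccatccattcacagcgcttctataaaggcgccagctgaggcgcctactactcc
Fosb, chr7:19310046-19310195, minus strand: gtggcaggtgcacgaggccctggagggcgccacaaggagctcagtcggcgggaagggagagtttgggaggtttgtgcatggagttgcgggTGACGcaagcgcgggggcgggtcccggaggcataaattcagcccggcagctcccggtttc
Junb, chr8:84978749-84978898, minus strand: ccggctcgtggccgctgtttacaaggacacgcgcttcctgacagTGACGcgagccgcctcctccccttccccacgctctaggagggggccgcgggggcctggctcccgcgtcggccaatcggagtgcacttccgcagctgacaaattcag
Nr4a1, chr15:101266696-101266845, plus strand: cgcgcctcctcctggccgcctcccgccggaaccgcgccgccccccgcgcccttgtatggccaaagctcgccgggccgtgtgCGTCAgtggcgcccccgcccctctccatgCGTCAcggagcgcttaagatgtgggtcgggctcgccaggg
Atf3, chr1:191183334-191183483, minus strand: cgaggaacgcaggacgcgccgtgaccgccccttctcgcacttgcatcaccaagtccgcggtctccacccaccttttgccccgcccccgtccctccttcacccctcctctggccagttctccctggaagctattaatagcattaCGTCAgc
The cores in Fos began 129 and 66 bases before the start, and that in Fosb 60 bases before it. Junb held its core 106 bases and Atf3 7 bases before the start. Nr4a1 held 4 cores, 233, 213, 69 and 40 bases before the start, of which the shown stretch holds the last pair.

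Before regeneration, the control livers had the highest level per kilobase of exon for Egr1, at 27.2 ± 10.5 CPM per kb, followed by Junb (26.5 ± 5.26), Ier2 (21.3 ± 5.78) and Jun (19.0 ± 8.22; mean ± SD, n = 4). Nr4a1 followed at 15.9 ± 14.9, Fos at 8.42 ± 6.96 and Myc at 5.06 ± 6.82 CPM per kb. The lowest levels were those of Atf3 at 2.11 ± 1.03, Ier3 at 1.39 ± 1.09 and Fosb at 0.821 ± 0.255 CPM per kb. No neighbours in this order were separated, since the ranges of their 4 libraries overlapped in each case. After regeneration the order in control livers was Junb, Egr1, Ier2, Jun, Myc, Atf3, Ier3, Fos, Nr4a1 and Fosb, so that Fos and Nr4a1 stood below Myc, Atf3 and Ier3. In that order Fosb, at 0.0262 ± 0.0116 CPM per kb, was the sole gene whose libraries did not overlap with those of its neighbour, Nr4a1 at 0.842 ± 0.320. In HIRA KO livers Egr1 and Junb also led before regeneration, at 47.2 ± 32.0 and 35.2 ± 13.0 CPM per kb. Jun led after it, at 15.9 ± 7.85, and Fosb was the lowest of the 10 genes at both times.

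**Figure D1:**
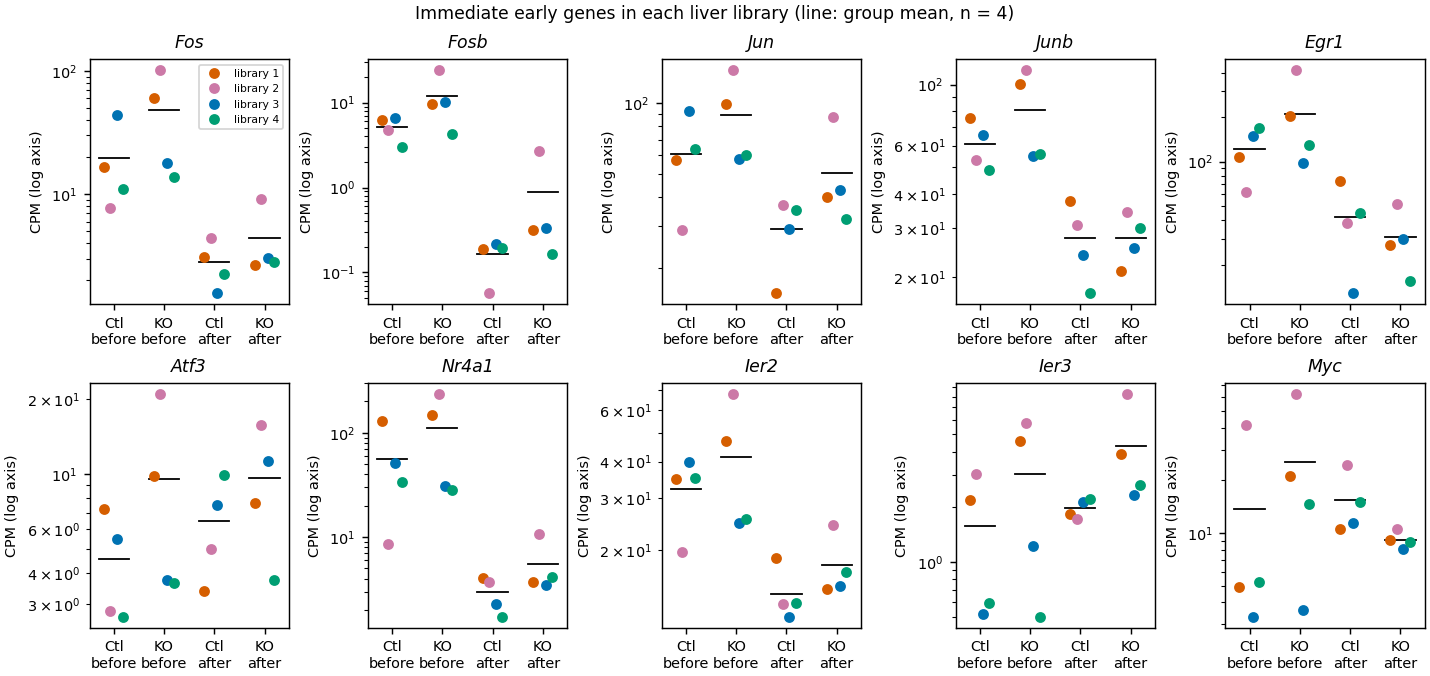
CPM on a log axis for each of the 10 genes in the 16 libraries, by group, with the 4 libraries of a group coloured by number and a line at the group mean. Fos, Fosb, Junb, Nr4a1 and Ier2 sit lower in every library after regeneration than in any before it in both genotypes, whereas Atf3, Ier3 and Myc overlap between the times.

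To ask how regeneration altered these genes, levels after it were compared with levels before it in each genotype. In control livers 5 of the 10 genes fell: Fosb, Nr4a1, Fos, Ier2 and Junb. In HIRA KO livers 6 fell, the same 5 and Egr1. None of the 10 rose in either genotype. Of all 23018 genes tested, 4.17% fell in control and 5.53% fell in HIRA KO livers. The median log2 fold change of the 10 genes was -1.16 in control and -1.51 in HIRA KO, against 0.00291 and 0.0194 over all genes. The comparison of 4 libraries with 4 was made with the edgeR quasi-likelihood test and Benjamini-Hochberg adjustment over all genes, and errors of fold changes are standard errors (SE).

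Fosb, the AP-1 subunit with the lowest level, had the steepest fall of the 10 genes in control livers in CPM. Its values in control libraries 1 to 4 were 6.17, 4.79, 6.53 and 3.02 CPM before and 0.188, 0.0573, 0.218 and 0.192 CPM after regeneration. In HIRA KO they were 9.58, 24.1, 10.1 and 4.26 CPM before and 0.317, 2.71, 0.332 and 0.167 CPM after. No library after regeneration reached the lowest library before it in the same genotype, and HIRA KO library 2 was the highest of its group at both times. The log2 fold change was -4.90 ± 0.90 in control (adjusted p = 0.00415, edgeR) and -3.72 ± 0.72 in HIRA KO (adjusted p = 0.0055, edgeR). The control value rests on few reads, 378 before and 12 after over the 4 libraries, with a pooled ratio of 31.3 and a 95% interval of 17.7 to 61.1 that covers counting error only. In HIRA KO the counts were 759 and 78, with a ratio of 12.6 (9.98 to 16.1). The HIRA KO value depended on library 2, since the log2 fold change was -5.39 without it after regeneration and -3.13 without it before, and the call was kept in both cases. In the deposited FPKM values the log2 ratio of group means was smaller, at -2.79 in control and -2.64 in HIRA KO.

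Fos, the usual partner of JUN proteins in AP-1, stood at 16.6, 7.80, 43.7 and 11.1 CPM in the control libraries before and at 3.07, 4.41, 1.58 and 2.26 CPM after regeneration. HIRA KO libraries held 60.5, 101.2, 18.02 and 13.8 CPM before and 2.67, 9.10, 3.04 and 2.84 CPM after. The times did not overlap in either genotype, and HIRA KO libraries 1 and 2 were the highest of the 16. The change was -2.81 ± 0.78 on the log2 scale in control (adjusted p = 0.0379, edgeR) and -3.44 ± 0.77 in HIRA KO (adjusted p = 0.013, edgeR). In control livers the call was kept in 2 of 8 fits that left out 1 library each (without control library 2 or 4 before regeneration), with log2 fold changes of -3.11 to -2.07 over the 8, the last without control library 3 before. In HIRA KO it was kept in 8 of 8, with -2.78 without library 2 before and -4.06 without library 2 after regeneration.

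Junb, a JUN protein that activates transcription more weakly than JUN, fell in both genotypes. In control it was at 75.8, 53.2, 65.4 and 49.1 CPM before and 37.9, 30.9, 24.0 and 17.5 CPM after regeneration. In HIRA KO it was at 100.3, 112.8, 54.9 and 56.0 CPM before and 21.1, 34.4, 25.4 and 30.2 CPM after. All libraries after regeneration were below all libraries before it. The log2 fold change was -1.14 ± 0.27 in control (adjusted p = 0.0153, edgeR) and -1.55 ± 0.28 in HIRA KO (adjusted p = 0.00282, edgeR), and it had the smallest SE of the 10 genes in both. Without control library 3 after regeneration the control value was -1.08 and lost its call. The 3′ end of Junb overlaps Prdx2 on the other strand, and the strand setting of the counting was not given; Prdx2 lay between 74.3 and 105.9 CPM in all libraries.

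Jun itself, the central subunit of AP-1, was lower after regeneration in both genotypes by its mean but did not pass the test. Control libraries held 57.1, 28.9, 92.8 and 63.9 CPM before and 15.7, 37.1, 29.3 and 35.1 CPM after. HIRA KO libraries held 98.9, 137.8, 58.1 and 60.0 CPM before and 40.0, 87.6, 42.7 and 32.2 CPM after. The times overlapped in both genotypes, through the lowest control library before regeneration and through HIRA KO library 2 after it. The log2 fold change was -1.05 ± 0.42 in control (adjusted p = 0.148, edgeR) and -0.81 ± 0.42 in HIRA KO (adjusted p = 0.236, edgeR).

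Nr4a1 spanned the widest range of the falling genes before regeneration. Control libraries held 129.4, 8.61, 51.3 and 33.4 CPM before, a 15.0-fold spread, and 4.07, 3.73, 2.29 and 1.73 CPM after regeneration. HIRA KO libraries held 148.6, 236.2, 30.9 and 28.2 CPM before and 3.67, 10.7, 3.51 and 4.12 CPM after. Even the lowest library before regeneration was above the highest after it in each genotype. The log2 fold change was -4.25 ± 0.95 in control (adjusted p = 0.0132, edgeR) and -4.33 ± 0.92 in HIRA KO (adjusted p = 0.0104, edgeR), or 19.0-fold and 20.1-fold. Without control library 1 before regeneration the control value was -3.41, and without HIRA KO library 2 before regeneration the HIRA KO value was -3.63, both still called. In FPKM Nr4a1 had the steepest fall of the 10 genes, at -3.99 in control and -4.37 in HIRA KO (log2 ratio of group means).

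Egr1, the zinc finger factor induced by growth factors and stress, led the order per kilobase before regeneration. Control libraries held 107.8, 62.3, 148.9 and 168.4 CPM before and 73.2, 38.3, 12.8 and 44.8 CPM after. HIRA KO libraries held 203.5, 416.5, 97.8 and 128.9 CPM before and 27.1, 51.8, 29.6 and 15.4 CPM after. The times overlapped in control, where library 1 after regeneration exceeded library 2 before it, and did not in HIRA KO. The log2 fold change of -2.77 ± 0.60 in HIRA KO passed the test (adjusted p = 0.0107, edgeR) and that of -1.53 ± 0.57 in control did not (adjusted p = 0.119, edgeR). The difference between the genotypes was -1.24 ± 0.80 and did not pass its own test (adjusted p = 0.794, edgeR), so Egr1 is not shown to respond differently in HIRA KO.

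Ier2, a small growth factor-inducible protein, had a modest fall. Control libraries held 34.8, 19.6, 39.9 and 35.1 CPM before and 18.7, 13.1, 11.9 and 13.2 CPM after regeneration. HIRA KO libraries held 47.1, 67.9, 24.7 and 25.6 CPM before and 14.7, 24.2, 15.1 and 16.8 CPM after. The times were separated in both genotypes, by a margin of under 1 CPM in each. The log2 fold change was -1.19 ± 0.32 in control (adjusted p = 0.0296, edgeR) and -1.22 ± 0.32 in HIRA KO (adjusted p = 0.0236, edgeR), and the calls were kept in 2 and 3 of 8 fits without 1 library. These were the fits without control library 2 before or 1 after, and without HIRA KO library 3 or 4 before or 2 after, and the log2 fold changes ran from -1.36 to -1.07 in control and from -1.39 to -0.85 in HIRA KO.

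Atf3, Ier3 and Myc did not pass the test in either genotype. Atf3 was at 7.26, 2.80, 5.50 and 2.66 CPM in control before and 3.38, 4.99, 7.52 and 9.94 CPM after regeneration, and its log2 fold change was 0.51 ± 0.61 (adjusted p = 0.694, edgeR). In HIRA KO it was at 9.84, 21.1, 3.74 and 3.63 CPM before and 7.66, 15.8, 11.3 and 3.73 CPM after, with a log2 fold change of 0.01 ± 0.59. Its libraries overlapped between the times in both genotypes. Ier3, a regulator of cell survival, was at 2.19, 3.01, 0.515 and 0.592 CPM in control before and 1.82, 1.72, 2.13 and 2.21 CPM after. In HIRA KO it was at 4.60, 5.74, 1.22 and 0.501 CPM before and 3.90, 8.30, 2.32 and 2.62 CPM after. Its log2 fold changes were 0.31 ± 0.70 in control and 0.51 ± 0.66 in HIRA KO (adjusted p = 0.859 and 0.683, edgeR), and the 4 control libraries after regeneration lay within a 1.28-fold range. Myc was at 4.92, 41.5, 3.32 and 5.27 CPM in control before and 10.5, 24.6, 11.3 and 15.0 CPM after. In HIRA KO it was at 21.2, 62.7, 3.60 and 14.7 CPM before and 9.15, 10.6, 8.06 and 8.85 CPM after. Library 2 was the highest for Myc in all 4 groups, and without control library 2 before regeneration the control log2 fold change went from 0.16 to 1.77. The changes of Myc, 0.16 ± 0.84 in control and -1.48 ± 0.86 in HIRA KO, did not pass the test (adjusted p = 0.944 and 0.299, edgeR).

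**Figure D2:**
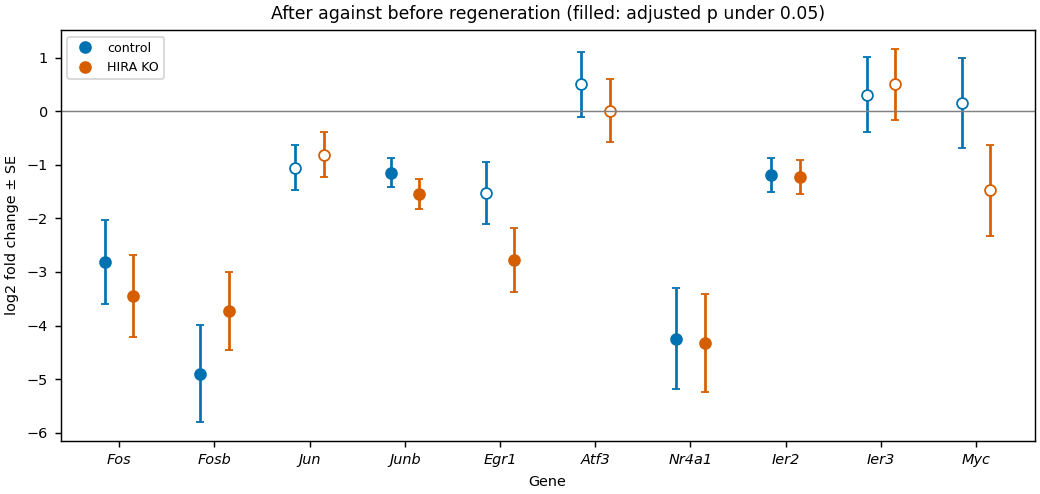
Log2 fold change after against before regeneration, with SE, for the 10 genes in each genotype (n = 4 libraries per group), filled where the adjusted p was under 0.05. Fosb and Nr4a1 lie lowest at -3.72 to -4.90, and Atf3 and Ier3 lie at or above 0.

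Read by whether all libraries after regeneration were below all before it, 5 of the 10 genes were separated in control livers and 6 in HIRA KO livers, against 8.98% and 7.45% of all genes tested. No gene of the 10 was separated in the other direction. DESeq2, the tool of the study, found 7 of the 10 lower in control, Jun and Egr1 in addition, and 6 lower in HIRA KO, against 8.71% and 10.2% of the genes it tested. Without the 4 HIRA KO libraries numbered 1 and 2, the 5 genes remained called in control, but of the 10 genes only Fosb remained called in HIRA KO (-4.76 on the log2 scale, adjusted p = 3.09e-04, edgeR), with 2 libraries a group. Of all genes 8.35% and 4.36% fell in control and HIRA KO in that fit. The HIRA KO values that lost their call were -2.94 for Nr4a1, -2.42 for Fos, -2.31 for Egr1, -0.98 for Junb and -0.64 for Ier2. The median change of the 10 genes in HIRA KO went from -1.51 to -0.811. In the deposited FPKM values, which carry a normalization by gene length, all 10 genes changed in the same direction as in CPM in both genotypes, with 5 genes separated between the times in control and 5 in HIRA KO, where Ier2 overlapped.

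Markers of several cell types also moved between the times. All 8 Kupffer cell and macrophage markers rose after regeneration in both genotypes, and their summed level went from 129.9 to 367 CPM in control and 187 to 225 CPM in HIRA KO before to 679 to 850 and 635 to 980 CPM after. No marker of the 8, Clec4f and Adgre1 included, was at 0 in any library. Neutrophil markers had fitted values above 0 for 8 of 8 in both genotypes, of which 1 rose in control and 2 in HIRA KO, and their sums were 5.38 to 10.2 and 3.45 to 14.3 CPM before and 13.35 to 22.55 and 12.7 to 30.6 CPM after, while Ly6g, Mmp8 and Ngp were at 0 in at least 1 library before regeneration. Of 10 hepatocyte markers 3 fell in each genotype, with median log2 fold changes of -0.46 and -0.243. Those were Tat and Pck1 in both, Arg1 in control and Ttr in HIRA KO, genes of amino acid and glucose metabolism and a plasma transport protein, named after their values were seen. The summed hepatocyte level overlapped between the times, at 108700 to 123000 CPM in control and 125200 to 167900 CPM in HIRA KO before and 109100 to 157600 and 115900 to 146100 CPM after. With the 4 HIRA KO libraries numbered 1 and 2 left out, 7 of 8 Kupffer cell markers were called in HIRA KO. In that fit 0 of 7 neutrophil and 3 of 10 hepatocyte markers were called in HIRA KO. Fewer cells of a type and less RNA per cell cannot be told apart in bulk tissue, and the part of cell composition in the change of the immediate early genes was not tested. The share of counts from the mitochondrial genome also differed, at 5.80% to 6.97% before and 4.14% to 6.01% after regeneration, and its part was not tested either.

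To ask whether loss of HIRA altered these genes, HIRA KO livers were compared with control livers at each time. Before regeneration 0 of the 10 genes passed the edgeR test, 0 had an unadjusted p under 0.05 and DESeq2 called 0. Over all genes the shares were 0.0391% called by edgeR, 13.2% at an unadjusted p under 0.05 and 2.37% called by DESeq2. The fitted log2 fold change was above 0 for 10 of 10 genes, from 0.35 ± 0.31 for Ier2 to 1.29 ± 0.70 for Fos, with a median of 0.908 against 0.00936 over all genes. The smallest adjusted p was 0.43 (Fosb, 1.22 ± 0.63). The intervals of 2 SE were wide for Fos (-0.10 to 2.68) and Nr4a1 (-0.60 to 2.59) and narrower for Junb (-0.13 to 0.95), and all 10 held 0.

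These higher means rested on HIRA KO libraries 1 and 2. Library 2 of HIRA KO before regeneration was the highest of the 16 libraries for 9 of the 10 genes, all but Ier3, and the highest of its group for all 10. The summed level of the 10 genes was 704 and 1186 CPM in HIRA KO libraries 1 and 2 before regeneration and 303 and 336 CPM in libraries 3 and 4, whereas the 4 control libraries lay at 233 to 458 CPM. Without the 4 HIRA KO libraries numbered 1 and 2, 0 of 10 genes were called, 1 (Fosb, 0.48) was above 0 and the median was -0.313. The direction of the difference before regeneration thus changed for 9 of the 10 genes with the libraries included.

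Markers of stellate and bile duct cells were also raised in these libraries. The summed level of 9 stellate cell and fibroblast markers was 692 and 504 CPM in HIRA KO libraries 1 and 2 before regeneration, 263 and 278 CPM in libraries 3 and 4 and 235 to 262 CPM in control. For 7 cholangiocyte markers the sums were 167 and 119 CPM, against 75.5 and 91.3 CPM in HIRA KO libraries 3 and 4 and 69.4 to 98.6 CPM in control. Of the single markers, 9 of 9 stellate and 6 of 7 cholangiocyte genes had a fitted value above 0 and 0 passed the test, and of the 16 only Cftr was at 0 in any library before regeneration. With the 4 HIRA KO libraries numbered 1 and 2 left out, 4 of 9 stellate and 4 of 7 cholangiocyte genes were above 0, and 0 passed. The split was not particular to these cells. Hepatocyte sums were 167900 and 149500 CPM in HIRA KO libraries 1 and 2, against 125200 and 140100 CPM in libraries 3 and 4. T and NK cell sums were 5.715 and 4.268 against 1.292 and 1.378 CPM, and neutrophil sums 11.91 and 14.34 against 10.67 and 3.445 CPM. Kupffer cell sums were lower, at 186.9 and 189 against 211.6 and 224.7 CPM. Endothelial, B cell and erythroid sums overlapped. The part of any of these cells in the levels of the 10 genes was not tested.

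After regeneration 0 of the 10 genes passed the edgeR test between HIRA KO and control, where 0.491% of all genes did, and 1 had an unadjusted p under 0.05, against 15.8% of all genes. This was Fosb, at 2.40 ± 0.98 on the log2 scale (adjusted p = 0.254, edgeR), which DESeq2 called (adjusted p = 0.0376) along with 5.93% of the genes it tested. The value rests on HIRA KO library 2, with 61 counts, where the other 3 libraries of its group had 7, 7 and 3 and the control libraries had 3, 1, 4 and 4. Without the 4 HIRA KO libraries numbered 1 and 2 the change of Fosb was 0.62 (adjusted p = 0.819, edgeR). Ier3 was the sole gene whose groups did not overlap, with 2.32 to 8.30 CPM in HIRA KO and 1.72 to 2.21 CPM in control, a pattern that 3.65% of all genes shared, and its log2 fold change was 1.12 ± 0.68 (adjusted p = 0.452, edgeR). In FPKM the groups of Ier3 overlapped, and without the 4 HIRA KO libraries its value was 0.34. Egr1 (-0.45 ± 0.57) and Myc (-0.74 ± 0.85) were the genes with a fitted value below 0. With the 4 HIRA KO libraries left out, 0 of the 10 genes were called and 8 had a fitted value above 0.

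**Figure D3:**
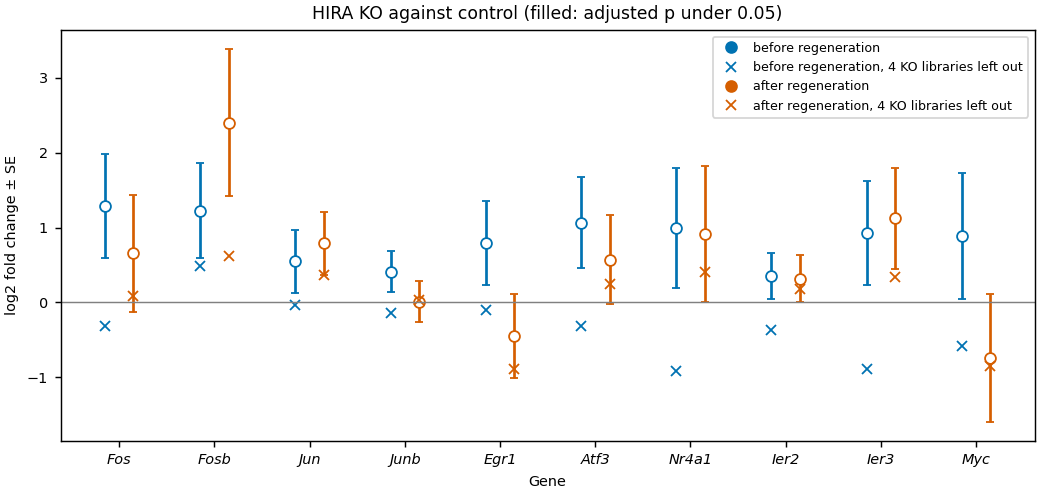
Log2 fold change of HIRA KO against control, with SE, before and after regeneration (circles, n = 4 libraries per group, open because no adjusted p was under 0.05), and the value without the 4 HIRA KO libraries numbered 1 and 2 (crosses). All circles for the time before regeneration lie above 0 and all crosses but that of Fosb lie below it.

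Whether the response to regeneration differed between HIRA KO and control was tested with the interaction of both. Of the 10 genes 0 passed with edgeR, where 0% of all genes were called, 0 had an unadjusted p under 0.05 against 6.81% of all genes, and DESeq2 called 0 against 0.413% of those it tested. Interaction values ran from -1.63 ± 1.2 for Myc to 1.18 ± 1.18 for Fosb on the log2 scale, with SE between 0.383 (Junb) and 1.23 (Nr4a1). The interval of 2 SE was -1.17 to 0.36 for Junb, the gene with the best precision, and -2.54 to 2.38 for Nr4a1. Without the 4 HIRA KO libraries numbered 1 and 2, 0 genes were called, and the fitted value was above 0 for 8 of the 10 genes in place of 3, with a median of 0.405 in place of -0.24. Fos, Junb, Atf3, Ier2 and Nr4a1 turned sign (0.40, 0.17, 0.55, 0.55 and 1.32), and Myc went to -0.26. Myc was at -3.23 without control library 2 before regeneration.

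**Figure D4:**
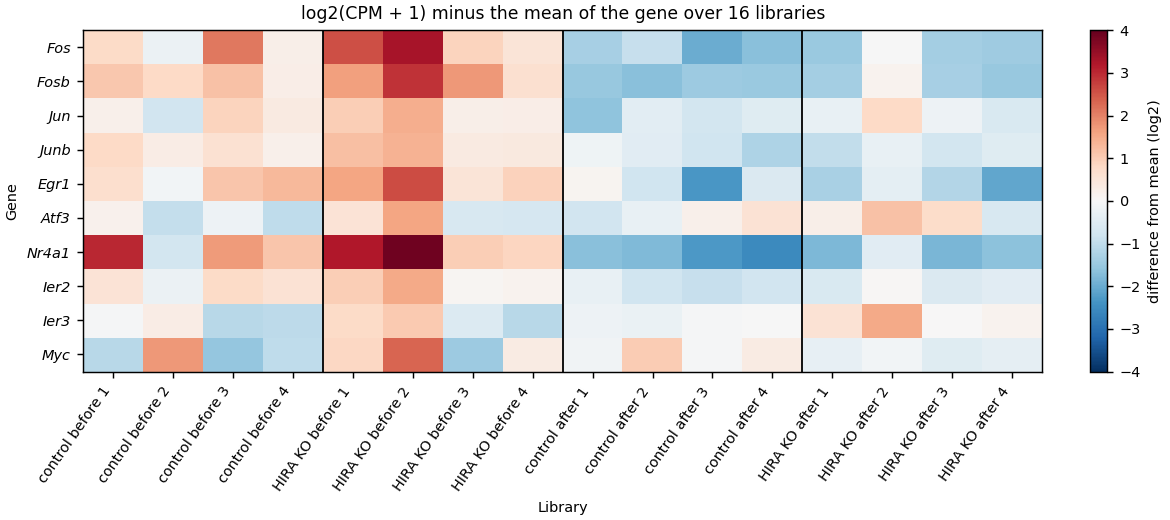
Difference of each gene's log2(CPM + 1) from its mean over the 16 libraries, with genes in rows and libraries in columns grouped by genotype and time. HIRA KO libraries 1 and 2 before regeneration are the reddest columns, and HIRA KO library 2 after regeneration stands out within its group.

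The 10 genes did not vary as a block. Across the 16 libraries, which share the 4 groups and the 4 distinct libraries described above, log2(CPM + 1) of Nr4a1 and Ier2 gave a Pearson r of 0.960, that of Fos and Ier2 0.953 and that of Junb and Nr4a1 0.948. Ier3 gave -0.0879 with Egr1 and 0.00729 with Junb, and Myc gave 0.0544 with Nr4a1. Of 13166 other genes, the 6 whose levels were most like the mean standardised level of the 10 were Slc13a2 (r = 0.953), Ptp4a1 (0.946), Ccn1 (0.944), Ptar1 (0.924), Jag1 (0.913) and Elovl2 (0.910), over the same 16 libraries. Slc13a2, a dicarboxylate transporter, was at 1.13 to 2.69 CPM in control and 1.63 to 7.40 CPM in HIRA KO before regeneration, and at 0.164 to 0.439 and 0.190 to 1.16 CPM after it. Ptp4a1, a phosphatase, was at 2.19 to 3.63 and 2.65 to 9.94 CPM before and at 0.752 to 1.06 and 0.901 to 2.22 CPM after. Ccn1, a secreted matrix protein, was at 13.3 to 38.6 and 14.0 to 63.1 CPM before and 9.32 to 12.2 and 11.0 to 23.6 CPM after.

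A wider list of 38 immediate early genes showed the same direction for part of its members. In control 7 fell and 1 rose, and in HIRA KO 6 fell and 1 rose, Ier5 in both cases (1.69 ± 0.14 and 0.86 ± 0.14 on the log2 scale, singled out after its values were seen), with median log2 fold changes of -0.394 and -0.62. Over all genes 4.17% fell and 6.04% rose in control, and 5.53% fell and 6.48% rose in HIRA KO, and these shares stand behind the counts of each list that follows. Ccn2, a matrix protein gene, changed by -2.87 ± 0.44 on the log2 scale in control and -2.53 ± 0.42 in HIRA KO (adjusted p = 0.00148 and 0.00218, edgeR). Zfp36, whose protein destabilises AU-rich transcripts, went from 106.7 to 379 CPM to 38.8 to 86.8 CPM in control, a change of -1.74 ± 0.28, and changed by -1.997 ± 0.28 in HIRA KO (adjusted p = 0.00142 and 6.00e-04, edgeR). Gadd45g, a growth arrest and stress gene, changed by -2.23 ± 0.54 and -2.51 ± 0.54 (adjusted p = 0.0193 and 0.011, edgeR). The clock repressor Per1 fell in control by 2.22 ± 0.52 (adjusted p = 0.0157, edgeR), and the kinase-like Trib1 fell in HIRA KO by 1.09 ± 0.32 (adjusted p = 0.0418, edgeR), a call kept in 2 of 8 fits without 1 library. Between HIRA KO and control 0 of the 38 were called at either time with edgeR, with 5 at an unadjusted p under 0.05 before and 8 after regeneration, where 13.2% and 15.8% of all genes were. Before regeneration 33 of the 38 had a fitted value above 0, which became 20 of 37 without the 4 HIRA KO libraries numbered 1 and 2.

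Among the nearest relatives, few other AP-1 genes passed the test. Of 11 tested, 0 were called in control and 2 rose in HIRA KO, of which Batf3 was at 1.48 ± 0.43 on the log2 scale (adjusted p = 0.0336, edgeR) and Batf, named after its values were seen, at 1.42 ± 0.43 (adjusted p = 0.0378, edgeR). Their calls were kept in 4 and 3 of 8 fits without 1 library. Of 6 EGR, NR4A and NAB genes tested, 1 fell in each genotype. This was Nr4a2, singled out after its values were seen because it lay below a mean of 1 CPM, with 0.861 to 2.83 CPM in control before and 0.107 to 0.401 CPM after regeneration (-2.57 ± 0.48, adjusted p = 0.00271, edgeR). In HIRA KO Nr4a2 changed by -1.66 ± 0.45 (adjusted p = 0.0221, edgeR).

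Few genes that transmit or limit the inducing signals passed the test. Dusp1, the phosphatase that switches off MAP kinases and is itself an immediate early gene, was at 61.8 to 208.7 CPM in control before and 7.25 to 34.9 CPM after regeneration. Its log2 fold change was -2.52 ± 0.33 in control and -1.98 ± 0.33 in HIRA KO (adjusted p = 5.71e-04 and 0.00182, edgeR). Of the 12 MAP kinase phosphatases and feedback inhibitors, the inhibitor Spred1 was the other called gene, and it rose in control by 0.82 ± 0.15 (adjusted p = 0.00268, edgeR). Of 18 upstream kinases and transcription factors, 3 rose in control and 0 fell: Mapk3, which encodes ERK1 (0.39 ± 0.12), and the SRF cofactors Mrtfa (0.60 ± 0.18) and Mrtfb (0.54 ± 0.16; adjusted p = 0.0483, 0.0357 and 0.0353, edgeR), each kept in 2 of 8 fits without 1 library. In HIRA KO 0 rose and 1 fell, the serum response factor gene Srf (-0.44 ± 0.14, adjusted p = 0.0447, edgeR), kept in 1 of 8 such fits.

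**Figure D5:**
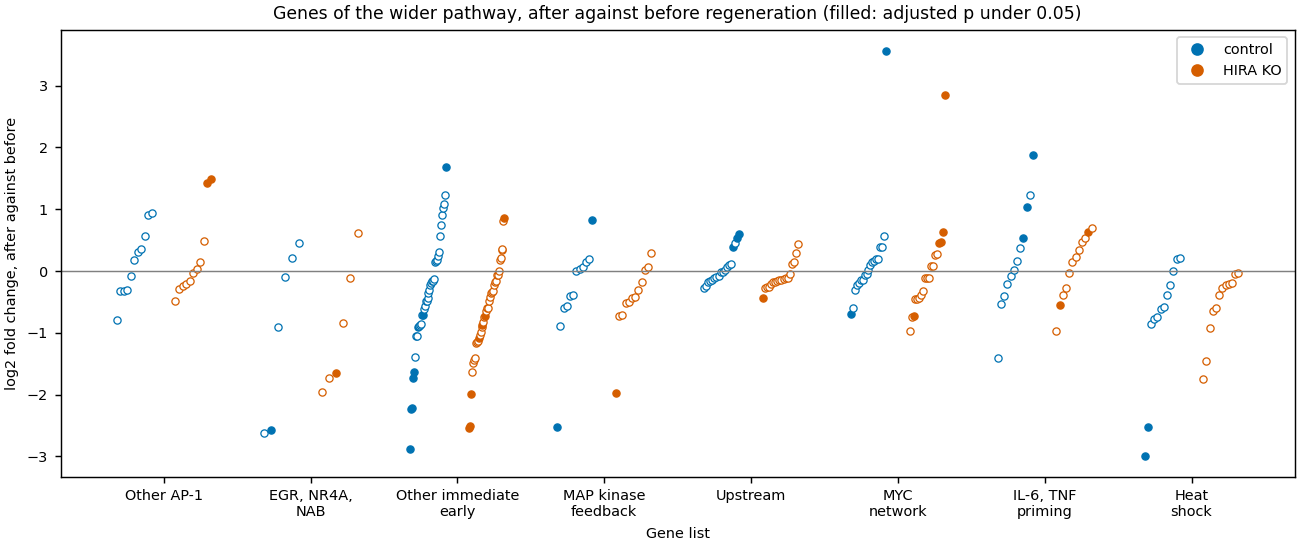
Log2 fold change after against before regeneration for single genes of 8 lists in control and HIRA KO livers, filled where the adjusted p was under 0.05. Filled points below 0 lie mostly in the list of other immediate early genes, the longest of the 8 at 38 genes, with Dusp1 alone among feedback genes.

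Partners, antagonists and targets of MYC passed the test in small numbers. Of 19 tested genes, 1 rose and 1 fell in control, and 4 rose and 1 fell in HIRA KO. Mxd3, an antagonist that shares the partner MAX and is known from dividing cells, rose by 3.57 ± 0.62 on the log2 scale in control and 2.85 ± 0.61 in HIRA KO (adjusted p = 0.00178 and 0.00637, edgeR). Mxi1, a further antagonist, changed by -0.70 ± 0.13 and -0.73 ± 0.13 (adjusted p = 0.00228 and 0.00153, edgeR). In HIRA KO the cyclin-dependent kinase gene Cdk4 rose by 0.46 ± 0.13 and the nucleolar protein gene Nop58 by 0.63 ± 0.18 (adjusted p = 0.0272 and 0.0338, edgeR), as did its nucleolar partner Nop56 by 0.45 ± 0.14 (adjusted p = 0.0398, edgeR, named after its values were seen). These 3 calls were each kept in 3 of 8 fits without 1 library.

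Of 12 genes of the IL-6 and TNF signals that prime hepatocytes, 3 rose and 0 fell in control, and 1 rose and 1 fell in HIRA KO. The TNF receptor gene Tnfrsf1a rose in both, by 0.53 ± 0.11 and 0.63 ± 0.11 on the log2 scale (adjusted p = 0.00522 and 0.00176, edgeR). The oncostatin M receptor gene Osmr rose in control by 1.03 ± 0.25 (adjusted p = 0.0123, edgeR), as did the cytokine gene Lif by 1.88 ± 0.51 at a mean of 0.552 CPM (adjusted p = 0.0253, edgeR, named after its values were seen), and the IL-6 receptor subunit gene Il6st fell in HIRA KO by 0.55 ± 0.15 (adjusted p = 0.0206, edgeR). Of 12 heat shock genes, 2 fell in control and 0 were called in HIRA KO with edgeR, where 4 had an unadjusted p under 0.05. The pair was Hspa1a (-3.00 ± 0.71) and Hspa1b (-2.53 ± 0.60; adjusted p = 0.0136 and 0.0174, edgeR), near-identical HSP70 genes between which reads may be split. In HIRA KO they were at -1.75 ± 0.69 and -1.45 ± 0.58 (adjusted p = 0.113 and 0.127, edgeR). With edgeR no difference between the genotypes was called for any gene of these lists at either time.

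The HIRA KO calls of these lists also depended on the 4 libraries. Without them the calls in HIRA KO went from 2 to 1 for other AP-1 genes and from 5 to 3 for the MYC network. For the EGR, NR4A and NAB genes (Nr4a2), the feedback genes (Dusp1) and the upstream genes (Srf) they went from 1 to 0. The IL-6 and TNF genes went from 2 to 3, and the wider list of immediate early genes had 7 calls in both fits. In control livers, whose own libraries were all kept, the calls went from 8 to 15 for the wider list, from 0 to 2 for other AP-1 genes and from 3 to 5 for upstream genes. Over all genes the share that fell went from 4.17% to 8.35% in control and from 5.53% to 4.36% in HIRA KO. HIRA KO groups held 2 libraries each in that fit, and these shares cover falls only.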

How the data were processed

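Poly-A RNA had been sequenced from 16 mouse liver samples. Per the study's methods, the authors trimmed reads with Trim Galore, aligned them to mm10 with STAR and counted them per gene with HOMER; the submitters' processing notes also name HTSeq and Cufflinks, with no role given. The authors deposited raw counts per gene and a table of FPKM values, whose making is not given in the sources used here. Genes with at least 10 counts in total were kept. Counts were scaled with TMM and tested with the edgeR (4.0.16, R 4.3.3) robust quasi-likelihood test on 4 group means over all 16 libraries, which share 1 estimate of the spread, with Benjamini-Hochberg adjustment and a threshold of 0.05. The test was first run on simulated counts. CPM per kb uses exon length from GENCODE M21. FPKM served as a check of the direction and size of changes and of the separation of groups, and no test was run on it.

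The members and gene lists were chosen with earlier results of these data known. Named were all members, per further list up to 4 called genes with the largest change and a mean of at least 1 CPM per regeneration comparison, and the 6 genes most alike. Alternatives were DESeq2 (1.42.0), its size factors, no filter on low counts, a stricter filter, fits on the groups compared, a replicate block, and leaving out single libraries. The alternative without the 4 HIRA KO libraries numbered 1 and 2 was added after seeing the data. The columns did not say which mouse gave which library, so p-values measure the spread between these libraries. Replicate libraries differed by more than sampling noise, so none was counted as a duplicate.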

Additional observations from a re-analysis of the deposited data

Results flagged for a closer look

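In 40 groups of 4 libraries (10 genes by 4 groups), 4 extreme libraries lay farther from the rest of their group than Dixon's 95% limit. For normally distributed values chance alone marks about 1 group in 20. The limit was applied to CPM without a log scale and several of the genes varied together, so that share may not hold here. HIRA KO library 2 after regeneration gave 3 of the 4: Fos at 9.10 CPM with a gap of 0.944 of the range of its group, Fosb at 2.71 CPM with a gap of 0.935, and Nr4a1 at 10.7 CPM with a gap of 0.915. Myc in control library 2 before regeneration was the fourth, at 41.5 CPM and a gap of 0.949, where the other 3 libraries held 3.32 to 5.27 CPM.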

How the results depend on the processing

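The calls in control livers were 5 of the 10 genes, and 3 without a filter on low counts. In HIRA KO livers they were 6, but 3 in a fit of only the groups compared (Junb, Nr4a1 and Egr1) and 1 without the 4 HIRA KO libraries numbered 1 and 2. Leaving out single libraries gave 2 to 5 calls in control, with 2 without control after 3 and 3 without control after 2, after 4, before 1 or before 3, and 5 to 6 in HIRA KO. Between HIRA KO and control after regeneration DESeq2 called 1 gene where edgeR called 0. The direction of the difference before regeneration turned without the 4 HIRA KO libraries for Fos (-0.32), Jun (-0.036), Junb (-0.14), Egr1 (-0.10), Atf3 (-0.31), Nr4a1 (-0.92), Ier2 (-0.36), Ier3 (-0.90) and Myc (-0.58). Leaving out single libraries turned the sign, over the ranges given, of Myc in control regeneration (-0.17 to 1.77), Atf3 (-0.31 to 0.76) and Ier3 (-0.015 to 1.02) in HIRA KO regeneration, Junb between genotypes after (-0.11 to 0.20) and Myc before regeneration (-0.055 to 2.497). The causes were not tested beyond the libraries left out. In the deviations from group means, libraries of the same number correlated at 0.201, 0.279, 0.0805 and 0.377 in control and at 0.587, 0.386, 0.463 and 0.579 in HIRA KO. HIRA KO library 3 before correlated best with library 4 after regeneration (0.516), and the other 7 libraries before correlated best with their own number. No source ties a number to a mouse and 1 control pair was under 0.1, so the numbers were not taken as pairs in the main fit. A value under 0.1 does not show that a pair came from different mice. As the study took both tissues from the operated mice, the main fit leaves out a pairing that the design holds. With the replicate block 4 genes were called in control, where Fos lost its call (-2.53, adjusted p = 0.0565, edgeR), and 6 in HIRA KO. Depth limits Fosb after regeneration, where control libraries held 1 to 4 counts.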
